A study of Mus musculus with 57 samples.

Results

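This account follows 35 genes that mark the blood vessels and the leptomeninges of the brain, measured in the prefrontal cortex of juvenile mice heterozygous or wild type for Shank2, a scaffold protein gene of excitatory synapses. The members were chosen by name as vascular and meningeal markers with a mean value of at least 10, from 51456 gene identifiers of which 16659 passed that minimum, and all 35 passed. Earlier results of these data were known when the members were chosen. Their counts beside the shares of all genes are therefore descriptive. They comprise 15 endothelial genes, 8 genes of mural cells, 2 basement membrane collagens, 9 genes of fibroblasts and the leptomeninges, and Cspg5, which encodes the proteoglycan neuroglycan C and is known from neurons and glia rather than from vessels.

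Brain capillaries are lined by endothelial cells whose tight junctions and transporters form the blood-brain barrier: Cldn5 seals the junctions, Slc2a1 carries glucose inwards and Abcb1a pumps drugs outwards. Mural cells surround them, pericytes on capillaries (Pdgfrb, Rgs5, Vtn, Abcc9) and smooth muscle on arterioles (Acta2, Tagln, Myh11), and both layers rest on a basement membrane of type IV collagen. Fibroblasts of the leptomeninges and of larger vessels make fibrillar collagens, the small proteoglycans decorin, lumican and osteoglycin, and the growth factor Igf2 with its binding protein Igfbp2.

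The tissue came from male and female C57BL/6N mice at postnatal day 25 that were Shank2 heterozygotes (HT) or wild type (WT). Their mothers' milk had delivered fluoxetine, lithium or vehicle from postnatal day 3 to day 24. HT fluoxetine, HT lithium, HT vehicle and WT fluoxetine had 10 libraries each, WT lithium had 9 and WT vehicle had 8. Split by sex, every group held 5 libraries except 3 WT groups of 4, the vehicle males, the vehicle females and the lithium females. The labels give neither the litter nor the mother, and they do not describe the Shank2 allele or the doses, so a p-value reflects no more than the spread among these samples. Poly(A) RNA of bulk tissue was sequenced, and the values are normalized estimated counts, called values below, with library totals of 30.4 to 33.2 M (M, mega). Shank2, the gene that defines the genotypes, lay between 3877 and 5006 in HT libraries, against 6762 to 11791 in WT libraries, so every library matched its label. A pair of libraries stood apart by their median correlation with the others, HT fluoxetine male 3 at 0.970 and WT vehicle male 2 at 0.968. Sums of 17 olfactory bulb genes ran from 10306 to 44477 over the libraries and sums of 20 striatal genes from 19305 to 65142, and how far the dissections differed was not tested.

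Members whose changes are described below are shown by the 150 bases before their annotated start, because these windows lie where transcription of 4 genes that passed a test begins: Ly6c1 and Igfbp2 for genotype, Cldn5 for fluoxetine and Kdr for lithium. Capitals mark the letters of 3 promoter motifs, found on either strand and nowhere overlapping in these windows. The GC box was searched as GGGCGG, which general activators such as Sp1 bind. The letters of the CCAAT box are those of its name. Lastly, the TATA box was searched as TATAAA. Windows are RefSeq sequence on GRCm38.p6, written 5′ to 3′ in the direction of the gene.
Ly6c1 (chr15:75048838-75048987, minus strand): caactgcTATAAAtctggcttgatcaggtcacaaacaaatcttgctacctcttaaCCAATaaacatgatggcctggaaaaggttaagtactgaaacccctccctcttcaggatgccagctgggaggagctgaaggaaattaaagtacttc
Igfbp2 (chr1:72824330-72824479, plus strand): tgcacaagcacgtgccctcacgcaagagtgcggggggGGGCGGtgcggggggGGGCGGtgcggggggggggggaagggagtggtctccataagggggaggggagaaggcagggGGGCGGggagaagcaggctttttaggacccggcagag
Cldn5 (chr16:18776697-18776846, plus strand): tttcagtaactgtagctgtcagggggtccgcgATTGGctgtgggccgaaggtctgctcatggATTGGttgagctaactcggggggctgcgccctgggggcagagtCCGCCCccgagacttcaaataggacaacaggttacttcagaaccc
Kdr (chr5:75978456-75978605, minus strand): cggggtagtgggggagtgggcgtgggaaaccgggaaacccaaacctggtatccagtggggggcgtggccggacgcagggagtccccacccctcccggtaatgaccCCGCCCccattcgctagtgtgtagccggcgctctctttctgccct
The 4 windows differ in their letters. Igfbp2 held 3 GC boxes, first bases at 113, 98 and 37 before the start. Cldn5 held 2 CCAAT boxes at 118 and 88 and a GC box at 45, all read on the opposite strand. Kdr also held its GC box at 45, on the opposite strand. Ly6c1 held no GC box in this window, and had a TATA box at 143 and a CCAAT box at 95. RefSeq gave a window for 24 of the 35 members, some with several starts, so that 31 windows were searched. A GC box was present for 12 members, a CCAAT box for 7 and a TATA box for 4. Over 32851 windows of the same length, 28.6%, 24.5% and 7.57% held these letters. These shares are per single window, while a member with several starts counted for a match in any of its windows. The counts and the shares are therefore not directly comparable. Matches describe letters only.

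The members differed in how steady they were across libraries. Within groups of genotype, drug and sex, the SD on the log2 scale was lowest for Cspg5 at 0.08, a spread at the 5.28th percentile of all genes tested, whose median was 0.17. Next among the members came Egfl7, a secreted endothelial protein, at 0.13. Ltbp2, a matrix protein of the latent TGF-beta binding protein family, had the widest spread at 0.82, at the 98.3rd percentile. The fibrillar collagen gene Col3a1 followed at 0.42, the smooth muscle myosin Myh11 at 0.39 and the lumican gene Lum at 0.38. Mean values over all libraries ran from 32.6 for Ltbp2 to 9322 for Cspg5, a scale that is not per length and does not rank genes.

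Extremes of many members fell in few libraries. WT vehicle male 3 held the highest value of 12 members, among them Slc2a1 at 5836, Ly6c1 at 1082 and Igf2 at 4749. HT lithium female 1 held the highest value of 10 others, such as Cldn5 at 1293 and Col4a2 at 5047. WT vehicle male 2 held the lowest value of 9 members, among them Kdr at 456, Myh11 at 141 and Col1a1 at 399.6, and the highest of Ltbp2 and Cspg5. HT fluoxetine male 3 held the lowest value of 8, among them Itm2a at 591, Rgs5 at 1284 and Col3a1 at 96.3. The vehicle males of the WT genotype thus supplied both a high and a low extreme.

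**Figure D1:**
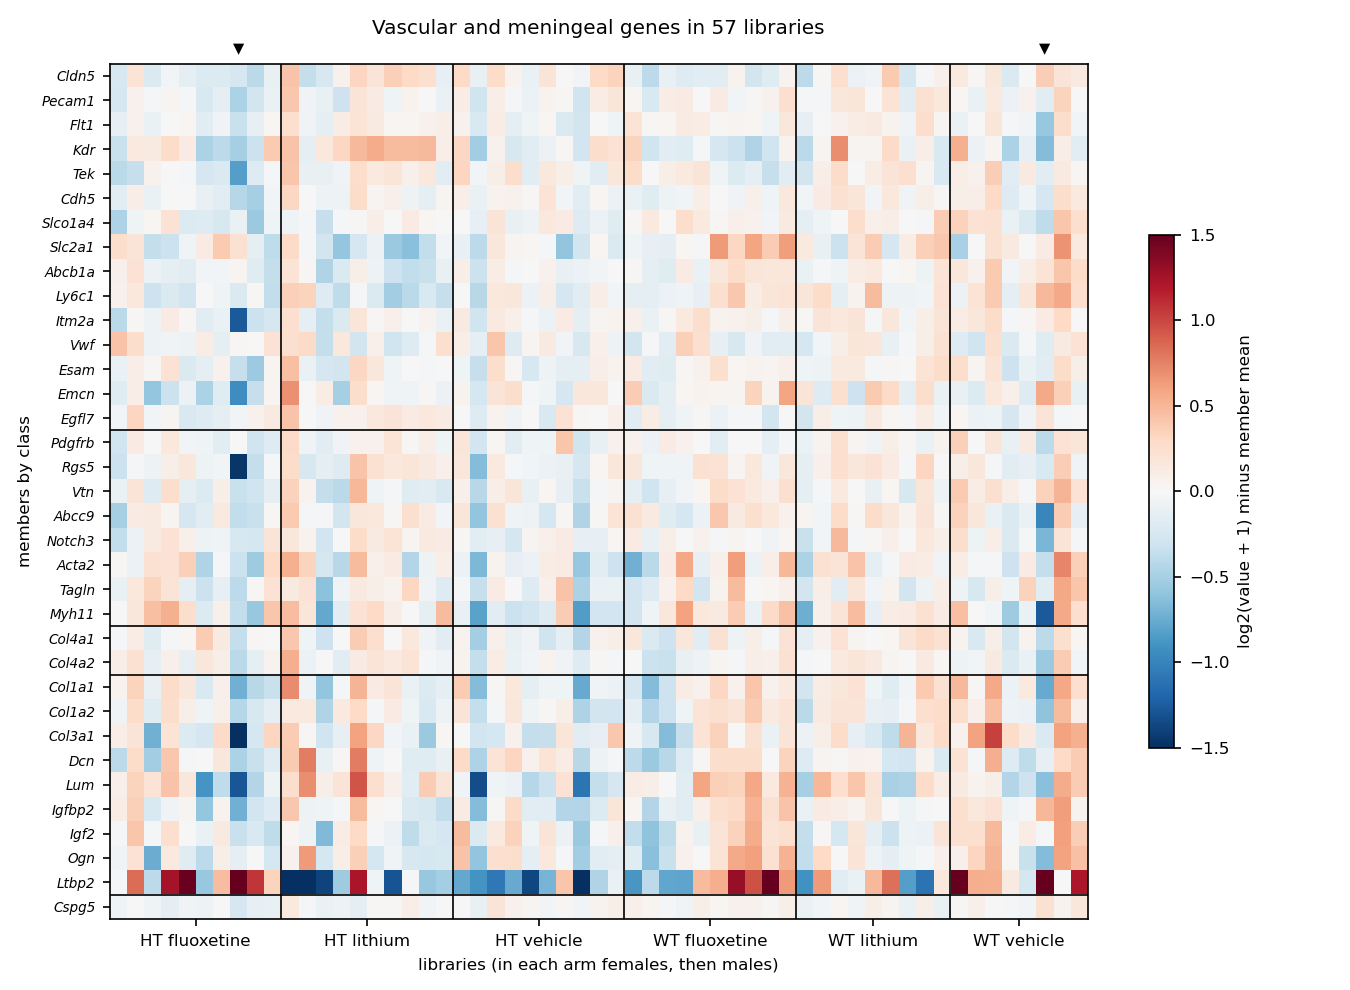
Heat map of log2(value + 1) minus each member's mean, with 35 genes down the page by class (black lines) and 57 libraries across by arm, females then males, clipped at 1.5 in either direction. Columns marked by triangles are HT fluoxetine male 3 and WT vehicle male 2. In HT fluoxetine male 3 the endothelial, mural, basement membrane and fibroblast members are low together, at class means of -0.36, -0.43, -0.38 and -0.46. In WT vehicle male 2 the mural and basement membrane means are -0.46 and -0.47, and the endothelial and fibroblast means are -0.03 and -0.01. HT vehicle female 2 and HT vehicle male 3, which are not marked, also have means below 0 in these classes.

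Heterozygosity for Shank2 went with lower values of 5 members over all treatments, 30 HT against 27 WT libraries, and with higher values of none. Among all genes tested 3.74% were called in this comparison, 2.12% as lower. Of the 5, 4 are endothelial (Slc2a1, Abcb1a, Ly6c1 and Itm2a) and the other is the fibroblast and leptomeningeal gene Igfbp2. In bulk tissue, fewer cells of a type and less RNA per cell cannot be told apart, and this holds for every result here. The log2 difference was below 0 for 29 of the 35 members, against 49.5% of all genes, and its median was -0.10, against 0.00 over all genes.

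Abcb1a, the P-glycoprotein gene on chromosome 5 (8660077 to 8748575, plus strand), lay between 841 and 1339 with a median of 1104 in HT libraries, against 1015 to 1539 with a median of 1245 in WT libraries. The genotypes shared the range from 1015 to 1339, with a log2 difference of -0.18 ± 0.04 (SE) and an adjusted p of 0.00303. Ly6c1, a surface protein anchored by lipid and known from brain endothelium (chromosome 15, 75044018 to 75048830, minus strand), ran from 511 to 939.6 with a median of 669.7 in HT libraries, against 657 to 1082 with a median of 829 in WT libraries. Most HT values lay below the WT median, and the log2 difference was -0.24 ± 0.05 with an adjusted p of 0.00349. The glucose transporter gene Slc2a1 (chromosome 4, 119108711 to 119137983, plus strand) ran from 2360 to 4779 with a median of 3404 in HT libraries, against 2601 to 5836 with a median of 3999.9 in WT libraries. Here the overlap was wide, and the log2 difference was -0.27 ± 0.07 with an adjusted p of 0.0121.

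Itm2a, an integral membrane protein gene on chromosome X (107397099 to 107403376, minus strand), lay between 591 and 1690.3 with a median of 1409.6 in HT libraries, against 1333 to 1755 with a median of 1509.7 in WT libraries. Its lowest value came from HT fluoxetine male 3, and the log2 difference was -0.19 ± 0.05 with an adjusted p of 0.0267. Igfbp2 (chromosome 1, 72824503 to 72852474, plus strand), which binds insulin-like growth factors, ran from 736 to 1685 with a median of 1151 in HT libraries, against 892 to 1871 with a median of 1273.5 in WT libraries. Both genotypes covered much the same range, and the log2 difference was -0.22 ± 0.06 with an adjusted p of 0.0235. All 5 genes passed in each of the 57 fits that left out 1 library. Without both libraries that stood apart, a setting chosen after seeing the data, Igfbp2 had an adjusted p of 0.0553 and the other 4 still passed. Igfbp2 also missed with sex as an additive term, at 0.0672, and Itm2a without the minimum mean, at 0.0503.

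The other endothelial members did not pass. The organic anion transporter Slco1a4 came closest, with a log2 difference of -0.15 ± 0.05 and an adjusted p of 0.0554. The junction gene Cldn5 was at 0.05 ± 0.05, the VEGF receptor Kdr at 0.13 ± 0.07, the clotting factor gene Vwf at 0.04 ± 0.05 and Egfl7 at 0.07 ± 0.04, all 4 above 0. Pecam1, Flt1, Tek, Cdh5, Esam and Emcn lay between -0.16 and -0.05. Among the 8 mural members none passed, the smallest adjusted p being 0.0779 for Vtn, all 8 were below 0 and the median was -0.08. Rgs5, a regulator of G-protein signalling in pericytes, averaged 3457 ± 657 (SD) in HT libraries and 3715 ± 404 in WT libraries, a log2 difference of -0.13 ± 0.07. The receptor Pdgfrb, which holds pericytes to the endothelium, was at -0.05 ± 0.04, the potassium channel subunit Abcc9 at -0.08 ± 0.07 and the Notch receptor Notch3 at -0.01 ± 0.05. The contractile genes Acta2, Tagln and Myh11 were at -0.12 ± 0.08, -0.05 ± 0.06 and -0.09 ± 0.10. The basement membrane genes Col4a1 and Col4a2 were at -0.03 ± 0.05 and 0.02 ± 0.05. Of the 9 fibroblast and leptomeningeal members 8 were below 0, with a median of -0.14. The fibrillar collagen genes Col1a1, Col1a2 and Col3a1 were at -0.13 ± 0.08, -0.10 ± 0.06 and -0.23 ± 0.11. The proteoglycan genes Lum (lumican) and Ogn (osteoglycin) were at -0.18 ± 0.10 and -0.14 ± 0.08, and Dcn (decorin) alone lay above 0, at 0.02 ± 0.07. Cspg5 averaged 9161 ± 596 in HT libraries and 9501 ± 529 in WT libraries, a log2 difference of -0.05 ± 0.02 with an adjusted p of 0.153.

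**Figure D2:**
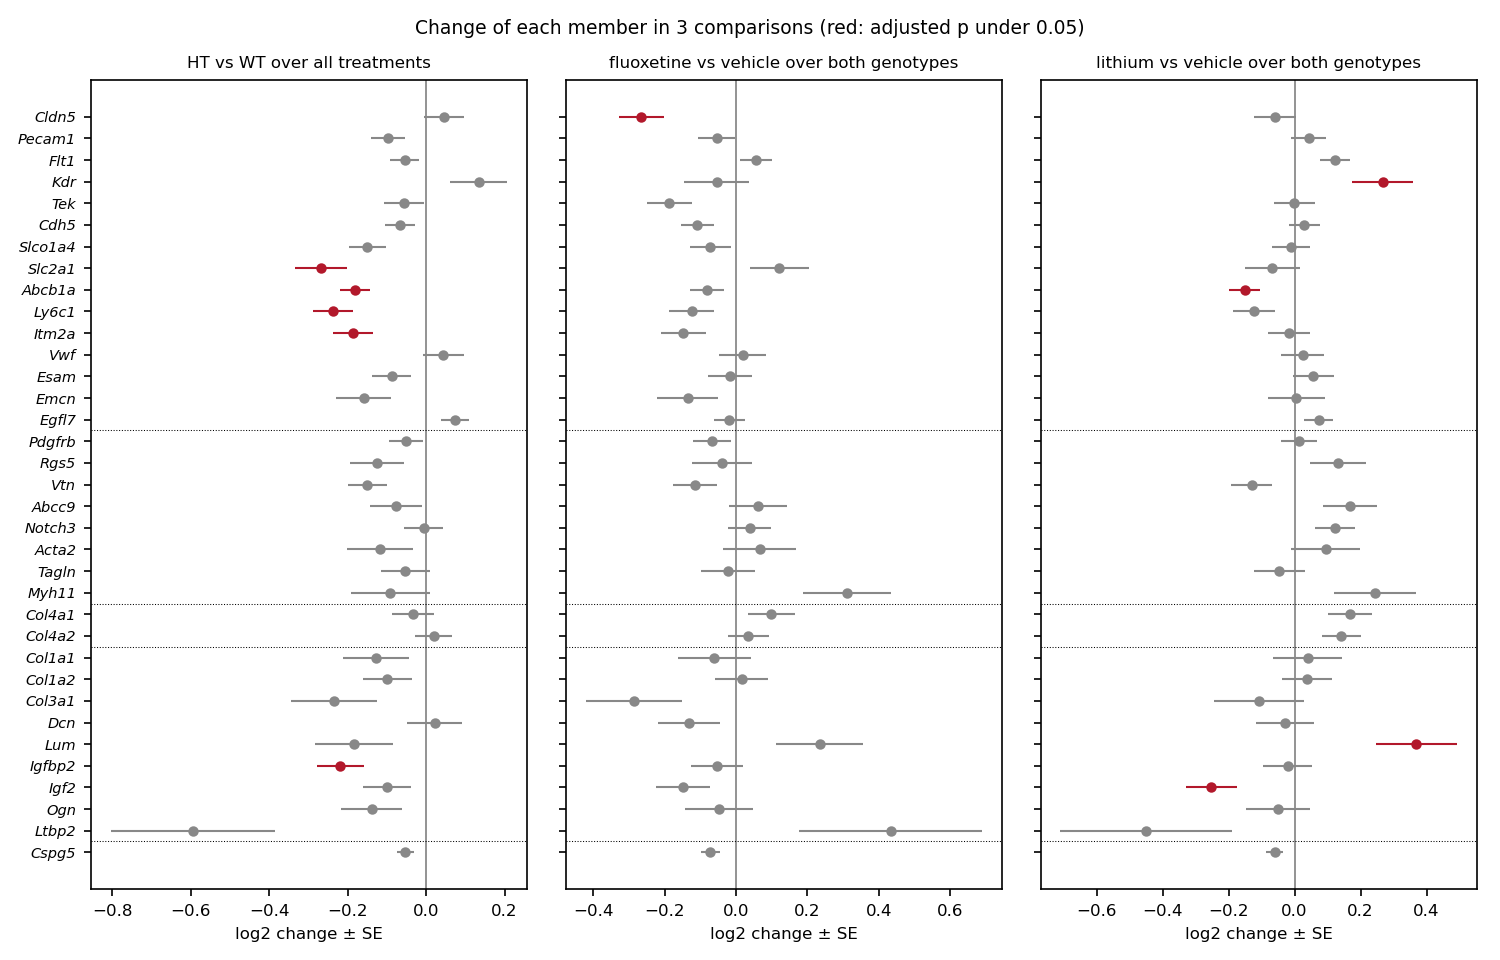
Log2 differences with their standard errors for all 35 members in 3 comparisons, HT against WT over all treatments, fluoxetine against vehicle and lithium against vehicle over both genotypes, with members down the page by class and red points at an adjusted p under 0.05. Red points number 5, 1 and 4 in the 3 panels, all 5 below 0 for genotype, while those for lithium lie on both sides of 0.

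Within each sex, members passed the genotype test in males. This split was chosen after seeing the data. Among 15 HT and 14 WT males 8 members were lower and none higher, where 9.64% of all genes were called and 4.68% as lower. Among 15 HT and 13 WT females limma called none of the 35 (0.648% of all genes), with 2 members at an unadjusted p under 0.05, beside 10.6% of all genes. The median log2 difference of the members was -0.15 in males and -0.03 in females, beside 0.00 over all genes in either sex. Below 0 were 30 members in males and 20 in females.

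Of the 35 members Igfbp2 alone passed a test of the difference between the sexes. In males it ran from 736 to 1369 with a median of 1039 in HT, against 1148 to 1871 with a median of 1395 in WT. In females it ran from 773 to 1685 with a median of 1227 in HT, against 892 to 1425 with a median of 1249.9 in WT. By median, HT males were the lowest and WT males the highest, with the females of both genotypes between them. The log2 difference was -0.45 ± 0.08 in males (adjusted p = 0.000684) and 0.02 ± 0.08 in females (adjusted p = 0.964). The difference of these effects, females minus males, was 0.47 ± 0.12 with an adjusted p of 0.0482, in a test that called 0.588% of all genes and 0.204% as higher. That call was thin, as it held in 24 of 57 fits without 1 library. The adjusted p reached 0.0824 without HT fluoxetine female 2 and was 0.0555 without both libraries that stood apart. Outside the members, the astrocyte gene Apoe at 0.26 and the oligodendrocyte precursor gene C1ql1 at 0.47 passed the same test (adjusted p = 0.0429 for each).

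By arm, Igfbp2 in males averaged 968 ± 205 in HT fluoxetine and 1537 ± 137 in WT fluoxetine, 1091 ± 132 in HT lithium and 1224 ± 86.1 in WT lithium, and 1055 ± 195 in HT vehicle and 1505 ± 333 in WT vehicle (SD). The genotypes lay furthest apart under fluoxetine, where the highest HT male had 1251 and the lowest WT male 1419. Each side held 5 libraries, and the lowest HT value, 736, came from HT fluoxetine male 3, which stood apart. This arm was singled out after its values were seen, and the share of all genes with such a gap was not counted. Nothing is therefore concluded from the gap. Whether the male genotype difference itself varied with drug was not tested.

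Slc2a1 had 2360 to 4779 with a median of 3323 in HT males, against 3057 to 5836 with a median of 4696 in WT males. Most WT males lay above the HT median, with a log2 difference of -0.48 ± 0.09 and an adjusted p of 0.00127. In females Slc2a1 averaged 3474 ± 623 in HT and 3573 ± 485 in WT, a log2 difference of -0.05 ± 0.09. Abcb1a ran from 888 to 1203 with a median of 1079.8 in HT males, against 1091 to 1539 with a median of 1291 in WT males. The genotypes shared the range from 1091 to 1203, and the log2 difference was -0.30 ± 0.05 with an adjusted p of 0.000684. Ly6c1 ran from 511 to 779.95 with a median of 631 in HT males, against 693 to 1082 with a median of 847 in WT males. Its adjusted p was the smallest among the members in males, 0.000482, at a log2 difference of -0.41 ± 0.07.

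The other 5 members called in males include Itm2a at a log2 difference of -0.22 ± 0.07 (adjusted p = 0.0446) and Igfbp2, described above. Emcn, the endothelial sialomucin endomucin, ran from 80.7 to 174 in HT males, against 135 to 233 in WT males, with a log2 difference of -0.30 ± 0.10 (adjusted p = 0.0397). Vtn, the matrix protein vitronectin, which brain pericytes secrete, ran from 1308 to 1751 in HT males, against 1395 to 2348 in WT males, with a log2 difference of -0.27 ± 0.07 (adjusted p = 0.0129). Igf2, an imprinted growth factor gene made by the leptomeninges, ran from 2111 to 3562 in HT males, against 2494 to 4749 in WT males, with a log2 difference of -0.32 ± 0.09 (adjusted p = 0.0172). For each of these 3 the ranges of the genotypes overlapped. Itm2a passed in 12 and Emcn in 16 of the 29 fits without 1 male, with adjusted p of up to 0.0816 without WT vehicle male 3 for Itm2a and 0.106 without WT vehicle male 2 for Emcn. The remaining 6 passed in all 29. With a term for the dependence of values on transcript length 4 of the 8 did not pass, Vtn at -0.24 (adjusted p = 0.102), Igf2 at -0.30 (0.102), Itm2a at -0.22 (0.156) and Emcn at -0.20 (0.314).

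For no endothelial or mural member did the test of the difference between the sexes pass. It gave 0.34 ± 0.10 for Ly6c1 (adjusted p = 0.0758), 0.43 ± 0.13 for Slc2a1 (0.0795) and 0.23 ± 0.08 for Abcb1a (0.102). Igf2 was at 0.43 ± 0.12 (adjusted p = 0.0654), with a genotype difference of 0.12 ± 0.09 in females. A genotype difference of these genes in 1 sex only is therefore not shown.

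**Figure D3:**
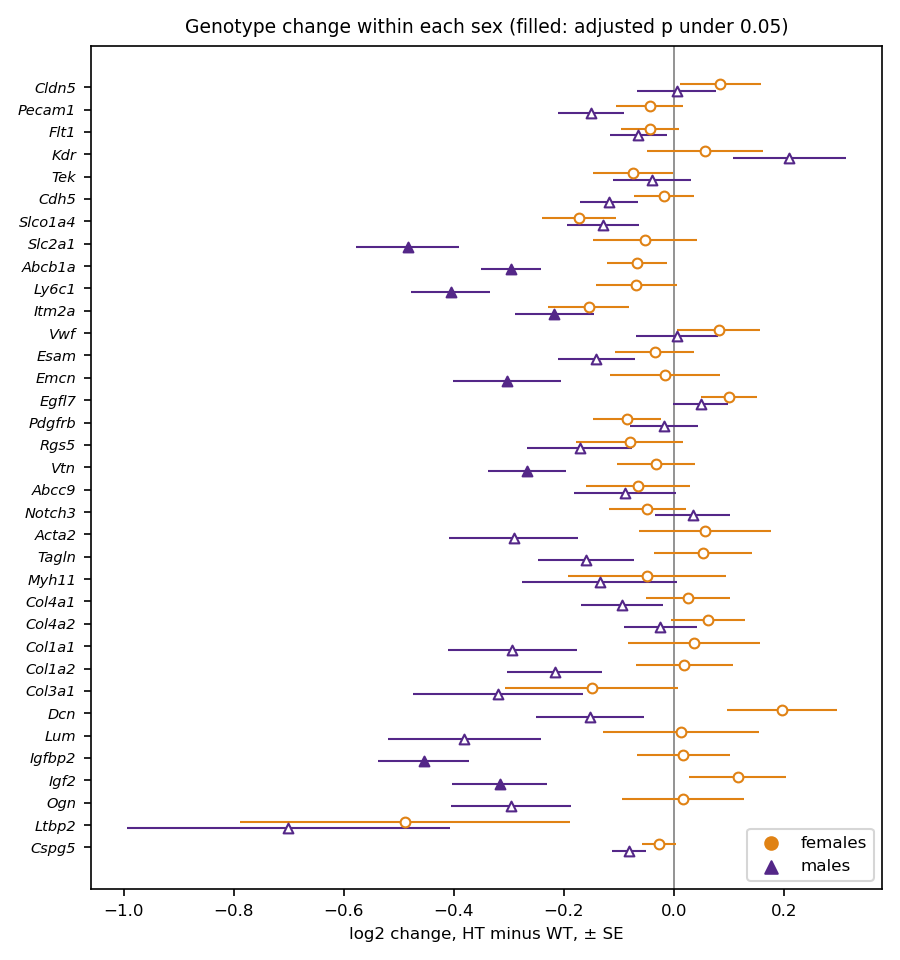
Log2 difference of HT against WT with its standard error for each of the 35 members, in females (orange circles) and in males (purple triangles), filled where the adjusted p was under 0.05. Filled symbols number 8, all of them male and below 0, and among these 8 the fibroblast member Igfbp2 shows the male and female points furthest apart.

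Other vascular and meningeal genes were read from lists that hold none of the 35 members. Some lists overlap: the connexin gene Gjb6, which fell over all treatments and in males, counts both as a fibroblast and leptomeningeal and as an astrocyte gene. Of 26 further mural, contractile and matrix genes tested 3 fell in HT libraries over all treatments and none rose: the tropomyosin Tpm2 at a log2 difference of -0.26 (adjusted p = 0.0125), the myosin light chain kinase Mylk at -0.20 (0.0227) and the nucleotide receptor P2ry14 at -0.29 (0.0292). In males 6 of the 26 fell, with a median of -0.23 over the list. Of 81 further fibroblast and leptomeningeal genes 4 fell in HT libraries over all treatments and 16 in males, and none rose in either. Aldh1a1, a retinaldehyde dehydrogenase, had the smallest p of them, averaging 1012 ± 137 in HT libraries and 1281 ± 114 in WT libraries, with a log2 difference of -0.35 ± 0.04 (adjusted p = 4.63e-07). It fell in females as well, with a log2 difference of -0.32 ± 0.06 (adjusted p = 0.00406). Of 26 further barrier, transport and junction genes none passed over all treatments, with a list median of -0.02 beside 0.00 over all genes. In males 6 of these fell, the lipid transporter Mfsd2a among them at -0.32 (adjusted p = 0.00624), and 1 rose, the taurine transporter Slc6a6 at 0.22. Of 52 ligands, receptors and regulators of vessel growth 3 rose and 2 fell over all treatments, with the angiopoietin Angpt1 at 0.15 (adjusted p = 0.0198) and the Wnt receptor Fzd4 at -0.18 (0.0271). In males 4 of the 52 rose, the VEGF receptor ligand Vegfd at 0.63 (adjusted p = 0.00341) among them, and 6 fell, with the flow-responsive transcription factor Klf2 at -0.31 (0.00833). Of 25 further basement membrane genes 1 rose, the proteoglycan agrin gene Agrn at 0.09 (adjusted p = 0.0173), and in males 1 fell, the fibronectin gene Fn1 at -0.25 (0.0193).

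Markers of other cells moved with the genotype as well. Of 18 astrocyte genes 5 fell in HT libraries over all treatments (list median -0.10) and 10 in males (-0.18), and the list median in females was -0.04. Acsbg1, a fatty acid ligase of astrocytes, averaged 3743 ± 465 in HT libraries and 4199 ± 288 in WT libraries (adjusted p = 0.00245). The summed astrocyte values ran from 219742 to 273005 over the HT arms, against 212980 to 301738 over the WT arms, and none of the genes was under 1 in every library. Of 9 perivascular macrophage genes tested 4 fell in HT males, among them the scavenger receptor Cd163 at a log2 difference of -0.66 (adjusted p = 0.00967). Over both sexes, sums of the 10 listed macrophage genes ran from 948 to 1980 in the HT arms, against 985 to 2217 in the WT arms. Of 12 oligodendrocyte precursor genes 1 fell over all treatments and 4 in males. Of 14 olfactory bulb genes tested 1, Pcp4l1, fell over all treatments, at a log2 difference of -0.47 (adjusted p = 0.00887). It fell under vehicle at -0.77 (0.0481) and in males at -0.62 (0.0107) as well. The list median was -0.59 in males and 0.18 in females. Of 11 choroid plexus genes tested 1 fell over all treatments, Clic6. Transthyretin (Ttr), the defining choroid plexus transcript, had medians of 4.88 to 7.67 in the HT arms, against 9.15 to 22.2 in the WT arms, and a highest value of 252. With the mean astrocyte level of each library as a term in the fit, added after seeing the data, none of the 5 members passed and all 5 differences were smaller: -0.08 for Abcb1a (adjusted p = 0.169), -0.12 for Ly6c1 (0.161), -0.13 for Slc2a1 (0.284), -0.07 for Itm2a (0.440) and -0.08 for Igfbp2 (0.450). Under that term Col4a2 alone passed, with a log2 difference of 0.16 (adjusted p = 0.00268). None of the 8 members called in males passed under it either. The mean log2 deviation of the astrocyte genes from their overall mean was -0.07 in HT males and 0.09 in WT males, and -0.02 in HT females and 0.00 in WT females. Their part in the vascular differences was not tested beyond that term.

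Within a single treatment the genotypes differed in 1 member. Under vehicle, Ltbp2 (chromosome 12, 84783212 to 84876532, minus strand) ran from 7.10 to 34.0 with a median of 14.4 in 10 HT libraries, against 20.8 to 138 with a median of 37.2 in 8 WT libraries. The 2 sets shared the range from 20.8 to 34.0, and the highest value was that of WT vehicle male 2. The log2 difference was -1.54 ± 0.37 with an adjusted p of 0.0340, in a comparison that called 0.762% of all genes and 0.234% as lower. It passed in 10 of 18 fits without 1 library, and without WT vehicle male 2 it was -1.28 with an adjusted p of 0.112. Below 0 under vehicle were 28 of the 35 members, with a median of -0.10.

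Under fluoxetine limma called none of the 35 between HT and WT (0.222% of all genes), with 13 members at an unadjusted p under 0.05 beside 10.5% of all genes. The smallest adjusted p was 0.133, for Cspg5, and 29 members were below 0. Under lithium it called none either (0.114% of all genes), with 5 members at an unadjusted p under 0.05, beside 7.75% of all genes, and 22 below 0. The genes that passed over all treatments lay below 0 in each arm. Abcb1a was at -0.14 ± 0.06 under fluoxetine, -0.18 ± 0.07 under lithium and -0.23 ± 0.07 under vehicle. For Ly6c1 the 3 values were -0.18 ± 0.09, -0.26 ± 0.09 and -0.27 ± 0.09. Igfbp2 was at -0.26 ± 0.10 under fluoxetine, -0.04 ± 0.10 under lithium and -0.36 ± 0.11 under vehicle.

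**Figure D4:**
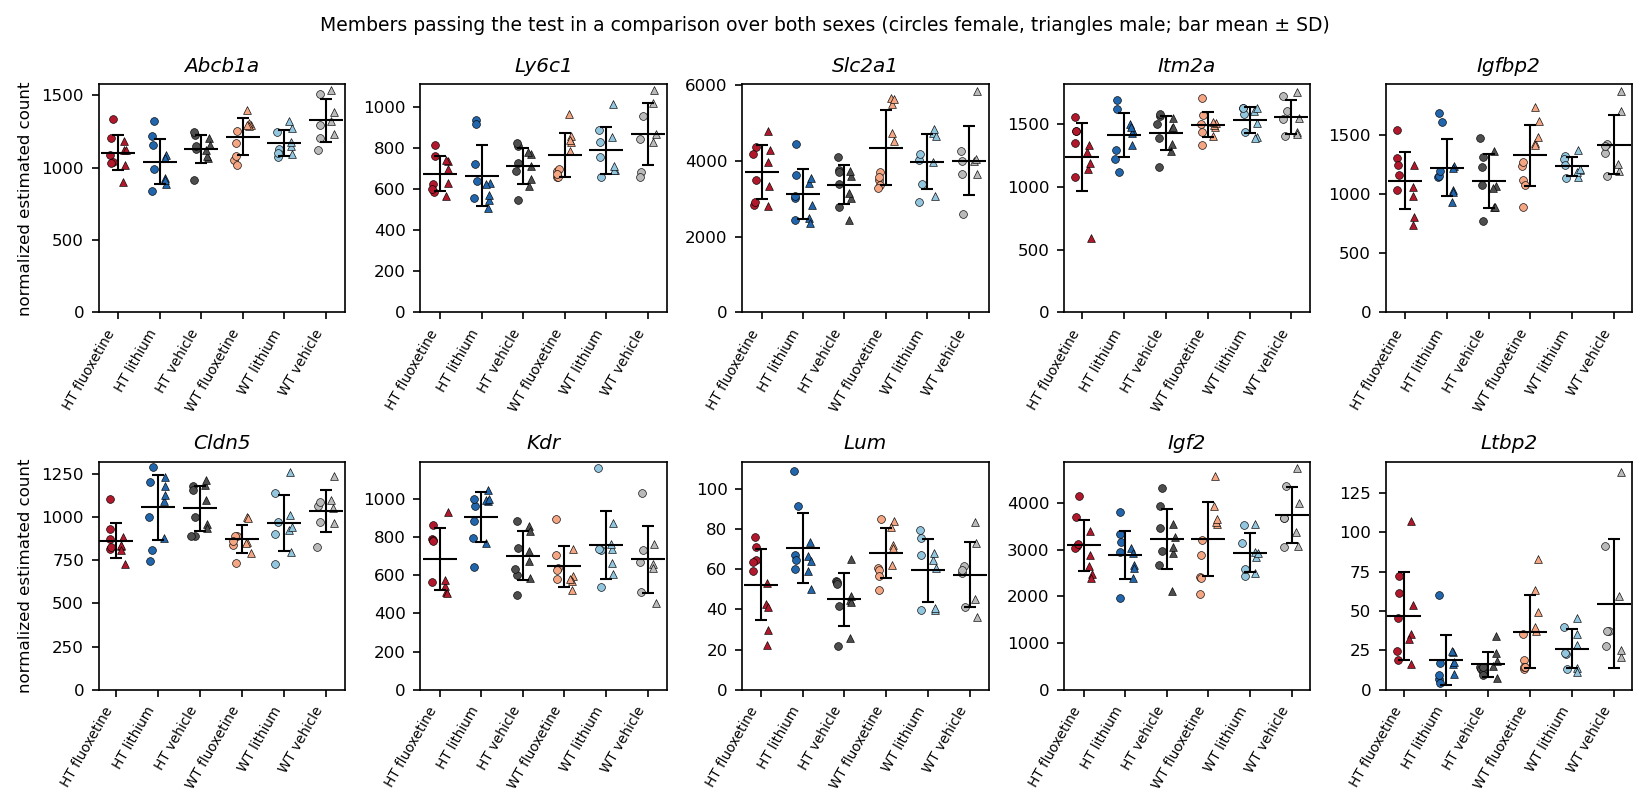
Values of the 10 members that passed the test in a comparison over both sexes, in the 6 arms from HT fluoxetine to WT vehicle, with circles for females, triangles for males and bars for the mean ± SD. Arms overlap for every gene, and the fluoxetine arms of Cldn5, at means of 865 in HT and 871 in WT, lie below the vehicle arms at 1051 and 1038.

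Fluoxetine went with a lower level of the tight junction gene Cldn5. Over both genotypes Cldn5 (chromosome 16, 18776847 to 18778262, plus strand) ran from 726 to 1107 with a median of 853 in 20 fluoxetine libraries, against 825 to 1239 with a median of 1058 in 18 vehicle libraries. Most fluoxetine libraries lay below the vehicle median although the ranges overlapped, and the log2 difference was -0.26 ± 0.06 with an adjusted p of 0.00879. This was the only member called, where 4.75% of all genes were called and 3.07% as lower. It passed in all 38 fits without 1 library, and with the length term it was -0.23 with an adjusted p of 0.128.

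Within a genotype the Cldn5 difference did not pass. In HT it averaged 865 ± 101 under fluoxetine and 1051 ± 129 under vehicle, a log2 difference of -0.28 ± 0.09 (adjusted p = 0.113). In WT it averaged 871 ± 81.5 under fluoxetine and 1038 ± 121 under vehicle, a log2 difference of -0.25 ± 0.09 (adjusted p = 0.166). In the 4 groups of genotype and sex the fluoxetine means were 911 and 818 in HT females and males and 843 and 899 in WT females and males, against vehicle means of 1024 and 1078 in HT and 986 and 1089 in WT.

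The other junction and adhesion members did not follow Cldn5 past the threshold. The angiopoietin receptor gene Tek was at -0.19 ± 0.06 (adjusted p = 0.0680), the VE-cadherin gene Cdh5 at -0.11 ± 0.05 (0.170), Pecam1 at -0.05 ± 0.05 and Esam at -0.02 ± 0.06. Myh11 was at 0.31 ± 0.12 (adjusted p = 0.134). The median over the 35 was -0.05, beside 0.01 over all genes, and 7 members had an unadjusted p under 0.05, beside 20.2% of all genes. Of the 26 further barrier genes 2 fell, Mpzl1, a cell surface glycoprotein, at -0.18 (adjusted p = 0.00149) and the monocarboxylate transporter Slc16a1 at -0.26 (0.0136). Of 52 vessel growth genes the ligand Vegfc fell, with a log2 difference of -0.31 (adjusted p = 0.0326).

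Transcripts of red blood cells moved in the same comparison. The list holds 4 globin genes and Alas2, an enzyme of heme synthesis. All 4 globins fell, Alas2 did not pass, and the list median was -0.58. Hbb-bs averaged 2184 ± 765 under fluoxetine and 3423 ± 1449.8 under vehicle (adjusted p = 0.00611). Summed values of the 5 genes had medians of 7057 in HT fluoxetine and 7038 in HT vehicle, and of 5253 in WT fluoxetine and 11178 in WT vehicle. The part of blood in the Cldn5 difference was not tested. Of 12 oligodendrocyte precursor genes 2 fell, the transcription factor Olig2 at -0.33 (adjusted p = 0.00221) and the sialidase Neu4 at -0.22 (0.0235), and their part was not tested either. The 14 olfactory bulb genes were all above 0 under fluoxetine, with a list median of 0.39, though none passed. Of the 18 astrocyte genes 1 fell under fluoxetine, Mlc1, at -0.14 (adjusted p = 0.0188), and with the astrocyte term Cldn5 remained at -0.24 with an adjusted p of 0.0107.

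Within a genotype fluoxetine changed no member past the threshold. In HT limma called none (0.33% of all genes), with 8 members at an unadjusted p under 0.05 beside 14.6% of all genes, and the smallest adjusted p was 0.0520 for Ltbp2. Ltbp2 ran from 16.6 to 108 with a median of 40.5 in HT fluoxetine, against 7.10 to 34.0 with a median of 14.4 in HT vehicle, a log2 difference of 1.39 ± 0.35. In WT it averaged 36.9 ± 23.3 under fluoxetine and 54.6 ± 40.9 under vehicle, a log2 difference of -0.52 ± 0.37. These comparisons and that of the genotypes under vehicle share the vehicle libraries. The difference of the fluoxetine effects, HT minus WT, was 1.91 ± 0.51 with an adjusted p of 0.492. In WT limma called none of the 35 (0.84% of all genes), with 4 at an unadjusted p under 0.05, beside 15.2% of all genes.

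Lithium went with differences of members in both directions. Over both genotypes, 19 lithium against 18 vehicle libraries, Kdr and Lum rose and Abcb1a and Igf2 fell, 4 of 35 where 13.3% of all genes were called, 7.16% as higher and 6.14% as lower. The members' share of calls was near that of all genes, and their median was 0.01 beside 0.00 over all genes. All 4 ranges overlapped.

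Kdr, the main receptor for VEGF on endothelium (chromosome 5, 75932827 to 75978458, minus strand), ran from 538 to 1162 with a median of 796 under lithium, against 456 to 1035 with a median of 673 under vehicle. Its log2 difference was 0.27 ± 0.09 with an adjusted p of 0.0437. In HT it averaged 909 ± 132 under lithium and 704.5 ± 128 under vehicle, and in WT 758 ± 179 under lithium and 684 ± 176 under vehicle. The HT means lay further apart, at a log2 difference of 0.37 ± 0.12 in HT and 0.16 ± 0.13 in WT, neither of which passed. Kdr passed in 16 of 37 fits without 1 library, the adjusted p reaching 0.104 without WT lithium female 3, and with the length term it was 0.05 with an adjusted p of 0.886.

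Lum, which encodes the proteoglycan lumican (chromosome 10, 97565128 to 97572703, plus strand), ran from 39.6 to 109 with a median of 64.5 under lithium, against 21.8 to 83.4 with a median of 49.8 under vehicle, a log2 difference of 0.37 ± 0.12 (adjusted p = 0.0375). It was also the 1 member to pass in HT alone, where 0.888% of all genes were called and 0.186% as higher. There it ran from 50.3 to 109 with a median of 65.7 under lithium, against 21.8 to 65.4 with a median of 45.8 under vehicle. The ranges shared the stretch from 50.3 to 65.4, and the log2 difference was 0.67 ± 0.17 with an adjusted p of 0.0315. In WT it averaged 59.5 ± 15.7 under lithium and 57.3 ± 16.1 under vehicle. The difference of the lithium effects, HT minus WT, was 0.60 ± 0.25 with an adjusted p of 0.610. Lum passed in 24 of 37 fits without 1 library over both genotypes, with an adjusted p of 0.0850 without WT vehicle male 2, and in 11 of 20 within HT, with 0.101 without HT vehicle female 2.

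Abcb1a ran from 841 to 1323 with a median of 1098 under lithium, against 917 to 1539 with a median of 1203 under vehicle. The ranges overlapped widely, with a log2 difference of -0.15 ± 0.05 and an adjusted p of 0.0283, or 0.0578 without the minimum mean. Igf2 (chromosome 7, 142650766 to 142666816, minus strand) ran from 1964 to 3814 with a median of 2925 under lithium, against 2111 to 4749 with a median of 3415 under vehicle, a log2 difference of -0.25 ± 0.08 (adjusted p = 0.0231). In WT alone, where 8.53% of all genes were called and 3.08% as lower, Igf2 was the member that passed. It ran there from 2432 to 3556 with a median of 2925 in 9 lithium libraries, against 3067 to 4749 with a median of 3682 in 8 vehicle libraries. Its log2 difference in WT was -0.35 ± 0.11 with an adjusted p of 0.0450, and it passed in 6 of 17 fits without 1 library, with 0.109 without WT vehicle female 3. In HT Igf2 averaged 2889 ± 517 under lithium and 3228 ± 637 under vehicle, a log2 difference of -0.16 ± 0.10.

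Among members that did not pass for lithium, the VEGF receptor Flt1 was at 0.12 ± 0.05 (adjusted p = 0.0655), Col4a1 at 0.17 ± 0.07 (0.0852) and Col4a2 at 0.14 ± 0.06 (0.0971). Among all genes 13.3% were called, and the lists stand beside that share. Of 52 vessel growth genes 3 rose, the growth factor Pdgfb at 0.19 (adjusted p = 0.00165), Bmpr2 at 0.17 (0.00393) and the VEGF co-receptor Nrp1 at 0.22 (0.00757), and 2 fell, Vegfc among them at -0.29 (0.0260). Of 25 basement membrane genes 2 integrins rose, Itga1 at 0.24 (adjusted p = 0.0189) and Itga7 at 0.21 (0.0327). Of 26 barrier genes the amino acid transporter Slc7a1 rose at 0.26 (adjusted p = 0.000216) and Mpzl1 fell at -0.15 (0.00318). Of 81 fibroblast and leptomeningeal genes 3 rose and 2 fell, with the collagen Col9a3 at -0.26 (adjusted p = 0.00690). Of 26 mural, contractile and matrix genes 1 fell, Cspg4, which is also on the oligodendrocyte precursor list. Of 12 oligodendrocyte precursor genes 3 fell, Neu4 at -0.28 (adjusted p = 0.00156), Olig2 at -0.31 (0.00176) and Cspg4 at -0.19 (0.0144). Of 18 astrocyte genes 3 fell, and the part of these other cells in the members' values was not tested beyond the astrocyte term. All 4 calls of members for lithium were lost with the length term. That term is the Spearman correlation of a library's deviation from the other libraries with transcript length, over genes outside all lists. It was above 0 in most lithium libraries (-0.12 to 0.17) and most fluoxetine libraries (-0.14 to 0.15). In most vehicle libraries it was below 0 (-0.33 to 0.05). The part of this trend in the drug differences was not tested beyond that term. With the astrocyte term 8 members passed: Flt1, Kdr, Abcc9, Col4a1, Col4a2 and Lum as higher, and Abcb1a and Igf2 as lower. The share of all genes called under that term was not set beside these 8. Whether calls rose over all genes as well is therefore not shown.

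Neither drug effect was shown to differ between the genotypes for any member. Limma called none of the 35 for the difference of the fluoxetine effects, with 2 at an unadjusted p under 0.05 beside 7.71% of all genes. It called none for the difference of the lithium effects either, with 3 beside 7.31%, and 0% of all genes were called in either test. Between the sexes over all arms limma again called none of the 35 (0.108% of all genes), with 2 at an unadjusted p under 0.05, beside 5.36% of all genes. Slc2a1 had the smallest adjusted p there, 0.906.

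Members varied together from library to library, both within and between the classes. With the mean of each group of genotype, drug and sex removed, Pearson's r over the 57 libraries had a median of 0.43 over all 595 pairs of members and ran from -0.30 to 0.89. Pairs of fibroblast and leptomeningeal genes had a median of 0.56, mural pairs 0.52, endothelial pairs 0.36 and pairs of an endothelial with a mural gene 0.42. All members share the same libraries, so the pairs are not independent.

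For 10 pairs r was tested by 100000 permutations, and p-values were adjusted over the 10. The collagens Col1a1 and Col1a2, subunits of 1 protein, had r = 0.89 and Spearman's rho = 0.85 (adjusted p = 2.5e-05), and r = 0.85 without the 2 libraries farthest from the median of the gene named first. The smooth muscle genes Acta2 and Myh11 had r = 0.86 and rho = 0.87 (adjusted p = 2.5e-05; 0.85 without the 2 libraries). Col4a1 and Col4a2 had r = 0.76 and rho = 0.71 (adjusted p = 2.5e-05; 0.72 without them), and the neighbours Dcn and Lum r = 0.70 and rho = 0.71 (adjusted p = 2.5e-05; 0.66 without them). Each of these 4 pairs reached the smallest p the permutations allow, 1e-05. Igf2 and Igfbp2 had r = 0.58 and rho = 0.54 (adjusted p = 3.33e-05; 0.56 without the 2).

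The other 5 pairs gave lower or similar values. Acta2 and Col1a1 had r = 0.60 and rho = 0.51 (adjusted p = 3.33e-05; 0.58 without the 2 libraries). Col4a1 and Cldn5 had r = 0.46 and rho = 0.46 (adjusted p = 0.0005; 0.46 without the 2 libraries farthest out for Col4a1). For Cldn5 r was 0.43 with Col1a1, 0.42 with the pericyte gene Rgs5 and 0.38 with Flt1, with rho of 0.43, 0.48 and 0.47 and adjusted p of 0.00111, 0.00111 and 0.00314. Without the 2 libraries farthest out for Cldn5 these r were 0.38, 0.37 and 0.33. Every relation held in sign without those libraries. Ltbp2 stood outside the pattern, with a median r of -0.01 with the other members. Egfl7 and Ltbp2 had no member above 0.5, while Col1a1 had 25. Slc2a1 and Ly6c1, both called for genotype, had median r of 0.20 and 0.25 and 2 members above 0.5 each. For Abcb1a, Itm2a and Igfbp2, also called for genotype, the median r was 0.37, 0.47 and 0.47.

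**Figure D5:**
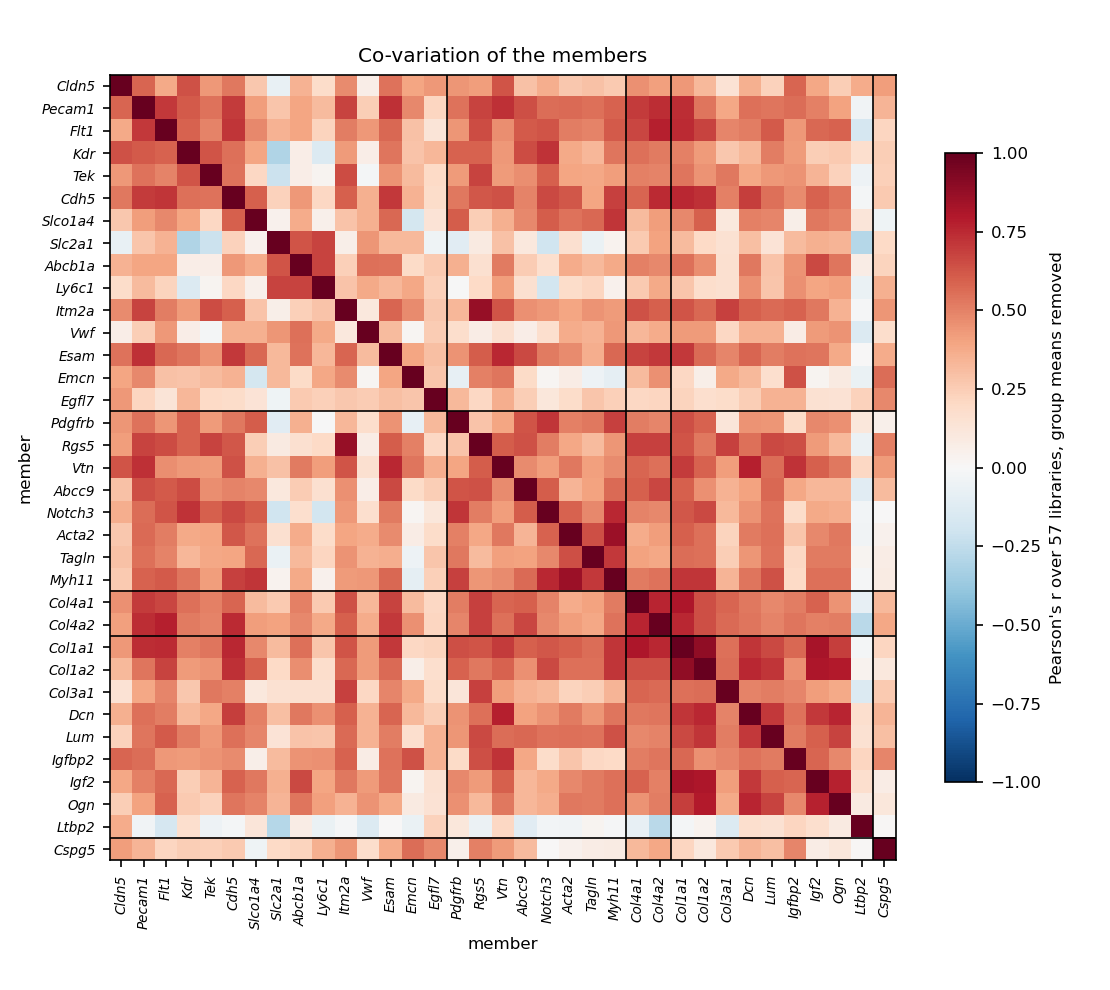
Pearson's r between all pairs of the 35 members over 57 libraries, with the mean of each group of genotype, drug and sex removed, members ordered by class on both axes. The blocks of mural and of fibroblast and leptomeningeal genes, with medians of 0.52 and 0.56, are warmer than the endothelial block at 0.36, and the row of Ltbp2 is near 0.

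Position and near copies limit some of these values. Col4a1 and Col4a2 lie head to head on chromosome 8, starting at 11312826 on the minus strand and 11312805 on the plus strand, and their transcripts overlap by 22 bases. Dcn and Lum lie on the same strand of chromosome 10, Dcn ending at 97518143 and Lum starting at 97565128. Ly6c1 and Abcb1a have close relatives that estimated counts may share with them: Ly6c2 had at most 19.4 in any library and Abcb1b 29.5 to 132, both under the levels of the members. Tagln overlaps Pcsk7, mean value 777, by 108 bases on the opposite strand, and although the kit was stranded, no source used here states how strand entered the counting.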

How the data were processed

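Prefrontal cortex RNA of 57 mice was sequenced. Per the labels' protocols, libraries came from a kit for stranded poly(A) mRNA. The authors deposited a signal per gene and library, estimated counts after normalization. The submitters' processing notes name DESeq2 1.19.11, Salmon 0.11.2, R 3.6.0 and the build GRCm38. Annotation release, filters and strand setting: not given in the sources used here. Deposited values are not whole and whole reads could not be recovered, so limma replaced the planned test of counts, and no counting interval or floor can be given. Of 51456 identifiers 51285 had a symbol, 21509 to 23264 genes lay above zero in a library, no column was left over and no libraries were identical.

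Genes with a mean of at least 10 (16659) were tested on log2(value + 1) with limma 3.58.1 (R 4.3.3; trend and robust moderation on). The pseudocount of 1 understates changes of low genes. All 57 libraries of 12 groups entered 1 fit, and effects were averaged over sexes, genotypes or treatments with equal weights. Benjamini-Hochberg adjustment ran over the 16659 genes, and a gene that was called, or passed, had an adjusted p under 0.05. After a log2 difference ± is the standard error, after a mean the SD over libraries. Comparisons numbered 13, and 3 more (genotype in females, in males, and their difference) were added after seeing the data, as were the fits without both libraries that stood apart and with an astrocyte term. The members and lists were chosen with earlier results of these data known. All members are named; those called, and the member with the highest mean of each class, have full statistics, and of other lists up to 3 called genes with the smallest p are named, with Aldh1a1, Vegfc and Gjb6 in further comparisons chosen after their values were seen. Correlations used 100000 two-sided permutations (SciPy 1.17.1, NumPy 2.4.6, Python 3.11.15). The fit was tested on simulated data. Coordinates are GENCODE vM21 on GRCm38, counted from 1, and promoter windows RefSeq. Alternatives were a pseudocount of 8, no filter, quantile normalization, only the groups compared in the fit, sex as an additive term, no trend or robust moderation, a length term, a replicate block and leaving out each library. By median, same-numbered libraries of different groups did not deviate together, so numbers were not taken to pair samples.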

Additional observations from a re-analysis of the deposited data

Results flagged for a closer look

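In each of the 6 arms the highest and lowest library of every member was set against the others. In 8 of 210 sets, 3.81%, a library lay far from the rest of its arm, where chance gives about 1 in 20. Itm2a at 591.5 and Rgs5 at 1284 were far below the other HT fluoxetine libraries in HT fluoxetine male 3, 1 of the libraries that stood apart over all genes. Egfl7 at 969.6 and Col4a2 at 5047 were far above the other HT lithium libraries in HT lithium female 1. The remaining 4 libraries each had 1 such member. Slco1a4 was low at 1141 in HT lithium female 3, with the next library at 1389. Ltbp2 was high at 60.17 in HT lithium female 5, with the next at 24.7. Vwf was high at 1250 in HT vehicle female 3, and Myh11 was high at 445.8 in HT vehicle male 2.

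The genotype effect on Igfbp2 differed between the sexes by 0.4723 on the log2 scale, females minus males (adjusted p = 0.0482). Its values by sex and its dependence on single libraries are given with that comparison.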

How the results depend on the processing

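Depth is unknown, drug and litter cannot be told apart, and members of low value such as Ltbp2 and Lum rest on few reads. No member's called difference reversed its direction under the alternatives run, differences that were not called were not followed one by one, and the causes of lost calls were not tested except as the construction of an alternative shows.

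Counts of members called changed by over 1.5 times as follows. For HT against WT under vehicle, 1 became 0 without a filter, with a fit of only the groups compared, without both libraries that stood apart and with the astrocyte term. For fluoxetine in HT, 0 became 1 with only the groups compared, 2 with the length term and 1 with the astrocyte term. For lithium in HT, 1 became 0 without a filter, with only the groups compared, with sex as an additive term and with the length term. For lithium in WT, 1 became 0 under those 4 settings and without trend or robust moderation, and 2 with quantile normalization and with the astrocyte term. For HT against WT over all treatments, 5 became 1 with the astrocyte term. For fluoxetine over both genotypes, 1 became 0 with the length term and 2 with the astrocyte term. For lithium over both genotypes, 4 became 1 without a filter or with sex as an additive term, 2 with only the groups compared or without both libraries that stood apart, 0 with the length term and 8 with the astrocyte term. For HT against WT in males, 8 became 4 with the length term (Slc2a1, Abcb1a, Ly6c1 and Igfbp2) and 1 with the astrocyte term. For the difference of the genotype effect between the sexes, 1 became 0 without a filter, with quantile normalization, without trend or robust moderation, with the length term, without both libraries and with the astrocyte term.

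Leaving out 1 library at a time gave 0 to 4 called members for HT against WT under vehicle (4 without WT vehicle male 1), 0 to 1 for fluoxetine in HT, 0 to 1 for lithium in HT, 0 to 2 for lithium in WT, 5 to 8 for genotype over all treatments (8 without HT lithium female 5), 1 to 2 for fluoxetine over both genotypes, 2 to 6 for lithium over both genotypes (6 without WT vehicle male 3), 6 to 11 for genotype in males and 0 to 4 for the difference between the sexes. It gave 0 throughout for the other comparisons. Neither these counts nor those under the alternatives were set beside the share of all genes called in the same fit. A change in the member counts therefore cannot be told from a change over all genes.

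Replicate numbers gave no sign of pairing by median: the correlation of deviations was -0.0078 over 300 pairs of libraries with the same number and 0.0006 over 1188 with different numbers. The numbers are those of the sample titles. In WT vehicle females they differ from the numbers in the library names for every library but the first. A median over all pairs does not exclude shared litters. A replicate block left the counts as they were, with 5 members for genotype over all treatments and 8 in males, except that lithium over both genotypes had 3 in place of 4, Kdr having an adjusted p of 0.0539. Of the 10 correlations, that of Cldn5 and Flt1 was 0.24 with an adjusted p of 0.0708 when group means were left in, and the others kept their side of the threshold.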
